A study of Mus musculus with 8 samples.

Results

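The genes described here encode heat shock proteins and chaperonins, the machines that fold new and damaged proteins. They were found by gene symbol: the HSP70, HSP90, HSP110, HSP60, HSP10 and small heat shock protein families, the DNAJA, DNAJB and DNAJC co-chaperones, the CCT chaperonin subunits with Tcp1, and Bag1 to Bag6. Of 18193 genes with a single-gene probe set on the array, 88 were members, and each was represented by its probe set with the highest mean level. These 88 genes had 210 probe sets, with 34 genes on 1 and 54 on several. Hsf1 and Hsp90ab1, the main heat shock transcription factor and the constitutive cytosolic HSP90, were not analysed here. The rule for members uses gene symbols and no measured value, and only the probe set of each was chosen by level.

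The series holds 8 Affymetrix mouse arrays, 2 for each of 4 groups. Lineage-negative thymocytes of wild-type (WT) or Ikaros-deficient (IkL/L) mice were cultured on OP9 DL1, a stromal line that presents a Notch ligand. They received the gamma-secretase inhibitor MRK-003 (GSI, 5 mM as labelled, a unit that could not be checked) or its vehicle DMSO for 16 h, and DN3 cells (Lin-CD44-CD25+), T cell precursors that depend on Notch, were then sorted. The groups are named by genotype and treatment (WT DMSO, WT GSI, then the same for IkL/L, the order used below), and all of them share the culture on OP9 DL1. GSI blocks the cleavage that frees the intracellular part of Notch receptors, and Ikaros is the transcription factor encoded by Ikzf1. The labels give neither the animals' age nor whether the replicates of a group were separate animals or cultures. The p-values therefore reflect the spread of these samples alone, and it may be technical.

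Chaperones work in relays. HSP70 proteins bind short unfolded stretches in a cycle that DNAJ proteins start and that exchange factors (HSP110 and BAG proteins) end by releasing ADP, HSP90 then matures signalling proteins, and the barrel-shaped chaperonins enclose a whole client, CCT (also TRiC) in the cytosol and HSP60 with its lid HSP10 in mitochondria. Under heat or misfolding, HSF1 trimers bind repeats of GAA and TTC in promoters and raise many of these genes, while the unfolded protein response does the same for the endoplasmic reticulum (ER) through its own element. Growing lymphocytes and their precursors carry high levels of many of these genes without any heat.

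The deposited values are log2 levels, so a difference of 1 is a 2-fold change, and levels of different genes cannot be compared with each other because probe sets differ. Array medians over all probe sets lay between 5.25 and 5.33, and replicates of a group correlated across genes with r from 0.985 to 0.995. The targeted gene, Ikzf1, stood at 11.95 and 12.17 (WT DMSO), 12.18 and 11.95 (WT GSI), 11.14 and 11.19 (IkL/L DMSO) and 11.75 and 11.52 (IkL/L GSI). It had a log2 difference between IkL/L and WT of -0.90 ± 0.14 under DMSO, lower in IkL/L (SE; adjusted p = 0.0222), while the difference under GSI did not pass (-0.43, adjusted p = 0.298). Dtx1, a Notch target, was lower under GSI in WT and IkL/L, with log2 differences of -4.20 and -4.55. DN3 and T lineage markers (10 of 12 listed were measured) averaged 11.34 to 11.82 on every array, but 2 of them, Il2ra, which encodes the CD25 of the sort, and Ptcra, were lower under GSI, with log2 differences of -2.28 and -1.99. Stromal markers (19 of 20 measured) averaged 6.17 to 7.28 on DMSO arrays and 5.99 to 7.52 on GSI arrays, and none of the 19 passed between treatments. Of 17 myeloid and dendritic markers 8 were higher under GSI (47.1%, against 10.8% of all genes). The 17 averaged 4.91 to 5.38 on DMSO arrays, 5.34 and 5.56 in WT GSI, and 6.43 and 6.49 in IkL/L GSI. The GAPDH control probe sets at the 3' end exceeded those at the 5' end, a log2 difference that grows as RNA or its copies get shorter, by 1.71 to 2.47 on DMSO arrays and 2.20 to 3.09 on GSI arrays. It moves with the treatment, so counts with this difference as a covariate are given beside the gene groups; the part of RNA quality or of myeloid cells in the results was not tested. In bulk samples, fewer cells of a type and less RNA per cell cannot be told apart.

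Promoter windows of 300 bases from RefSeq (build GRCm38.p6), lying mostly upstream of an annotated start, were found for 73 of the 88 genes. They were searched on both strands for 3 alternating heat shock units (GAA, 2 bases, TTC, 2 bases, GAA, or the same read from TTC), for the 2-unit forms GAANNTTC and TTCNNGAA that these contain, for the ER stress element (CCAAT, 9 bases, CCACG) and for CACGTG. Each of 4 windows is printed because it holds a motif of the response its gene is known for: Hspe1 and Hsph1 are genes that fell under GSI, Hspa1b is a classical heat-inducible gene that did not pass, and Hspa5 is the main ER chaperone. Capitals mark the letters of matched motifs, without their spacer bases.
Hspe1, chr1:55087898-55088197, + strand: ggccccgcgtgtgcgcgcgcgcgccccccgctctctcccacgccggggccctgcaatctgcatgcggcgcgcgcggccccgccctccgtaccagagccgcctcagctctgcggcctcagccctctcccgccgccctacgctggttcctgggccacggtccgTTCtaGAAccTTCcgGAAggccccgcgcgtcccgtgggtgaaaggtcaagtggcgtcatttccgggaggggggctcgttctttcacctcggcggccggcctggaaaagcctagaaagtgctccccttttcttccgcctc
Hsph1, chr5:149636287-149636586, - strand: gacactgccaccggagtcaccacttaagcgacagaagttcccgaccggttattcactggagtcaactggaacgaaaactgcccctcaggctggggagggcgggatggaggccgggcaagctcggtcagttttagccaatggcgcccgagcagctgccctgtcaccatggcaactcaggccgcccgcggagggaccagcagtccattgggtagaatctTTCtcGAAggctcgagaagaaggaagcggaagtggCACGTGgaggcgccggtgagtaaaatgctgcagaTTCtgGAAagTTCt
Hspa1b, chr17:34959189-34959488, - strand: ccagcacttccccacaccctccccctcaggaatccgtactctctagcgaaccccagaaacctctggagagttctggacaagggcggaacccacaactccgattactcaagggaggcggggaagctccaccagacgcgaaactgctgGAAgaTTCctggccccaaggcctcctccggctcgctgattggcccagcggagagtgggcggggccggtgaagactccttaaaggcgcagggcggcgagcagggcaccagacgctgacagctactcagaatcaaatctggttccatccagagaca
Hspa5, chr2:34771840-34772139, + strand: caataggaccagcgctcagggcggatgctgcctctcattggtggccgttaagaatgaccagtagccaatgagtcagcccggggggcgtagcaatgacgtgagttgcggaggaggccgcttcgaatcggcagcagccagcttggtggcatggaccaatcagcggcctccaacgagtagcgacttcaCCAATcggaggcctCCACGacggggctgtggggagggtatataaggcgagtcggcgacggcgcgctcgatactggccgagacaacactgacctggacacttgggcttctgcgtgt

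Hspd1 (HSP60) and Hspe1 (HSP10) lie head to head on chromosome 1, and one annotated start of Hspd1, on the - strand, is 216 bases before that of Hspe1, on the + strand. Their windows share 285 bases, so both hold the same run of heat shock units, which begins at base -89 from the Hspe1 start and at base -144 from that start of Hspd1 when read on its own strand. In the Hsph1 window the 3 units begin at base 36 after the start and CACGTG at base 2. Hspa1b holds GAANNTTC at base -104 from its start, with no match to 3 units in these 300 bases, and the ER stress element of Hspa5 begins at base -65. Hsp90aa1, Hspa8, Hspa9, Dnajc2, Bag4 and Cct4 were among the members without a window, so they were not searched. Across the 73 genes, 3 units occurred in 4 (5.48%: Dnajb6, Hspd1, Hspe1 and Hsph1), against 0.662% of 27025 genes with such windows. Hspd1 and Hspe1 are counted apart there although they share the same run, and the other Hspd1 window held no such match. GAANNTTC occurred in 17 (23.3%, against 9.04% of genes), TTCNNGAA in 8 (11%, against 9.6%), CACGTG in 7 (9.59%, against 8.09%) and the ER stress element in 3 (4.11%, against 0.137%; Dnajc3, Hsp90b1 and Hspa5). A match is a run of letters and not a measured binding site.

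The first comparison asked how the genes responded to GSI, taken as the average of the WT and IkL/L differences. Of the 88 genes 31 fell, 4 rose and 53 did not pass an adjusted p of 0.05 (limma, Benjamini-Hochberg over all 18193 genes). Among all genes tested 12.5% fell and 10.8% rose, against 35.2% and 4.55% of the members. Most members (64 of 88) lay above the median gene, some of them barely. All 31 that fell and all 4 that rose were among these 64. Of the 9096 genes above the median gene, 21.7% fell and 17.8% rose. The median log2 difference was -0.07 over members and -0.00 over all genes. All 4 GSI arrays lay below all 4 DMSO arrays for 30 members (12.7% of all genes did so) and above them for 6 (9.6% of all genes). At least 2-fold lower on average were 9 genes (10.2%, against 4.48% of all genes): Hsph1, Hspd1, Bag2, Hspa14, Hspbp1, Cct8, Hspa9, Hspa4 and Dnajc2. The total of 35 called members dropped to 22 without IkL/L DMSO replicate 1, to 21 when IkL/L GSI replicate 2 was left out and to 23 when WT DMSO replicate 1 was, and 20 of the 35 were called again whichever single array was left out. The other calls were lost in 7 of the 8 such runs for Dnajb6 and Dnajc4, in 6 for Bag4 and Dnajc28, in 5 for Cct7, Dnaja1, Dnajb11, Dnajb2, Dnajc11 and Hspa8, in 4 for Cct2 and Dnajc24, in 3 for Dnajc27 and Hspa5 and in 2 for Dnajc6. With the GAPDH difference as a covariate 15 fell and 9 rose, and 16 of the 35 were called again. Calls among all genes in these runs are not given here. A change particular to the members can therefore not be read from these counts.

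**Figure D1:**
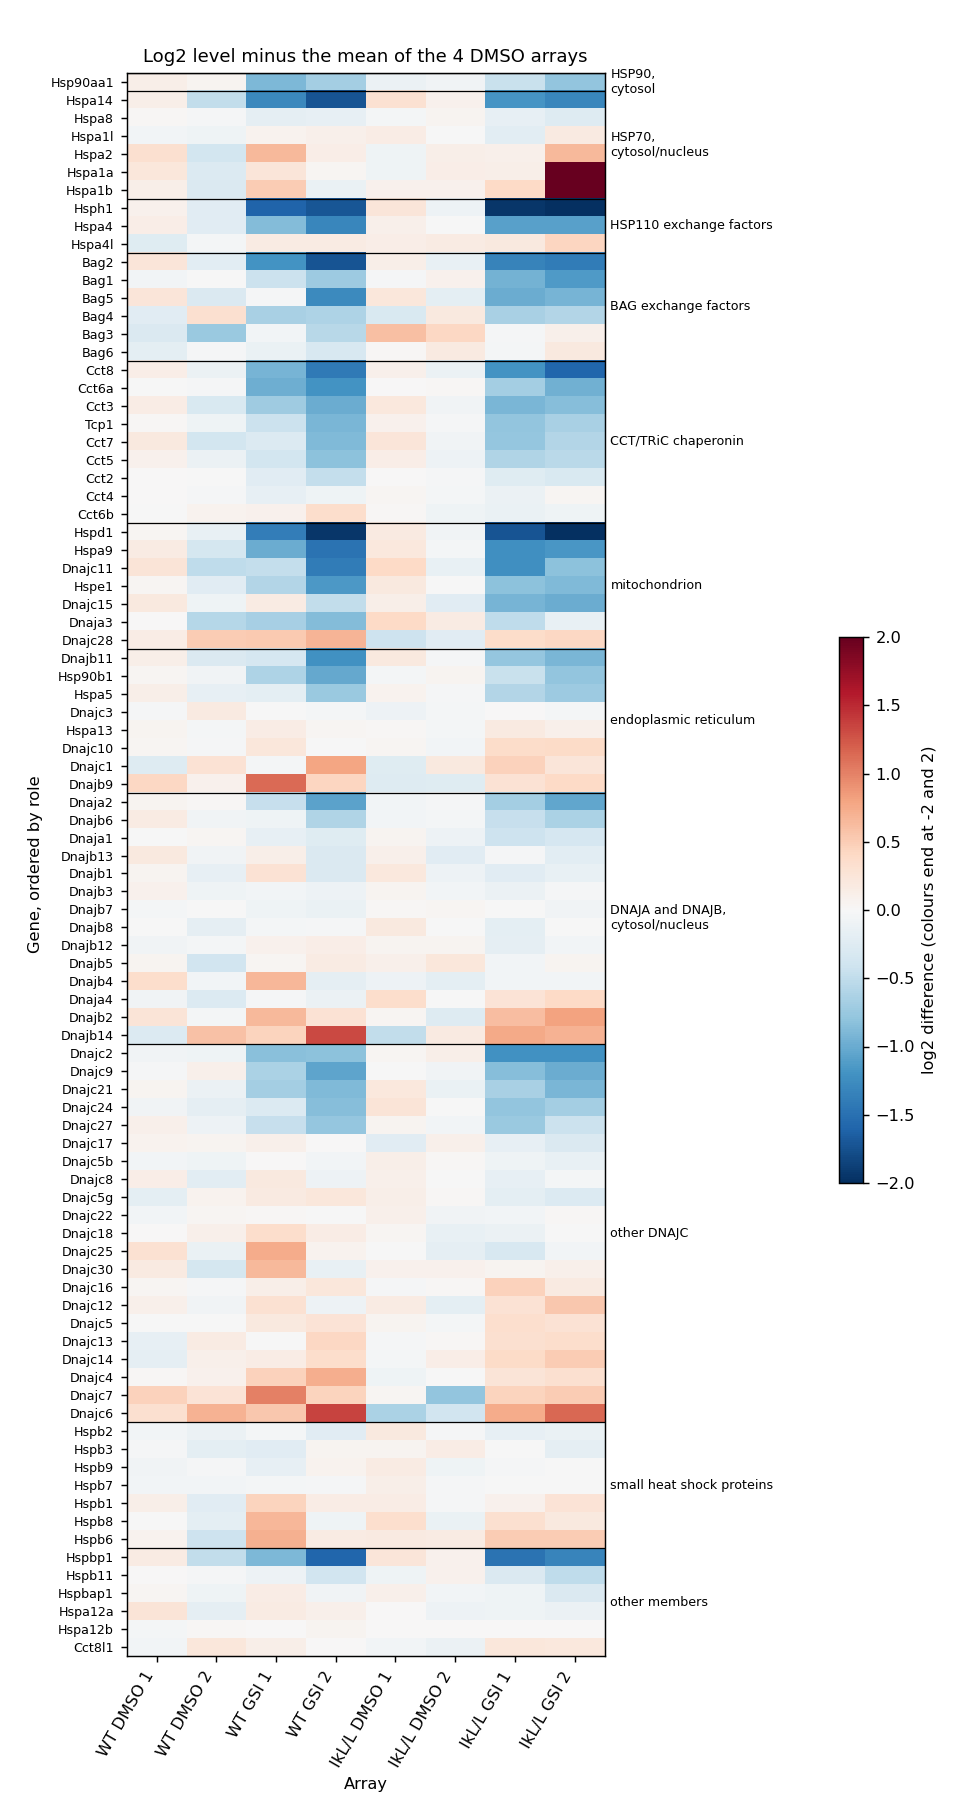
Log2 level of each of the 88 genes (vertical axis, grouped by role) on each of the 8 arrays (horizontal axis), minus that gene's mean over the 4 DMSO arrays; blue is lower, red higher, and colours end at -2 and 2. The GSI columns are blue for Hsph1, Hspd1, Hspa14, Bag2 and most CCT subunits, and near white for the small heat shock proteins; Hspa1a and Hspa1b are dark red on the second IkL/L GSI array.

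**Figure D2:**
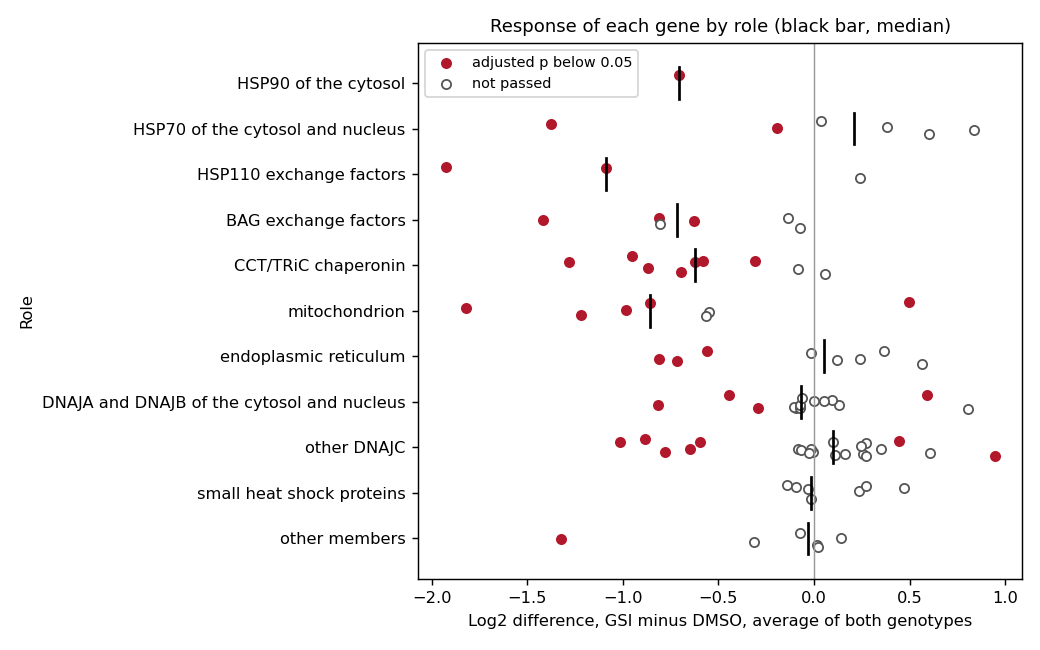
Log2 difference between GSI and DMSO, averaged over both genotypes (horizontal axis), of each gene by role (vertical axis); filled points passed an adjusted p below 0.05 and black bars are medians. The CCT, mitochondrial, HSP110 and BAG medians lie between -1.09 and -0.62, and those of the other roles with more than 1 gene lie between -0.07 and 0.21.

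In the cytosolic HSP70 and HSP90 core, Hsp90aa1, Hspa8 and Hspa14 fell. Hsp90aa1, the stress-inducible cytosolic HSP90, measured 13.05 and 13.005 with DMSO against 12.04 and 12.26 with GSI in WT cells, and 12.83 and 12.88 with DMSO against 12.49 and 12.15 with GSI in IkL/L cells. Every GSI array was below every DMSO array, a log2 difference of -0.71 ± 0.09 (SE; adjusted p = 0.00131). Hspa8 (HSC70), the constitutive HSP70, measured 13.77 and 13.72, then 13.57 and 13.58, in WT DMSO and GSI, and 13.70 and 13.80, then 13.58 and 13.49, in IkL/L DMSO and GSI. The groups did not overlap, but the difference was small at -0.19 ± 0.05 (adjusted p = 0.0288), and it lost its call without 5 of the 8 arrays in turn. Both lie near the top of the scale (the 99.0 and 99.9 percentiles of all genes), and their other probe sets above the median gene gave larger differences, -1.26 and -1.64 for Hsp90aa1 and -0.68 and -0.79 for Hspa8.

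Hspa14, an HSP70 that works at the ribosome, fell most within its family. It measured 11.04 and 10.43 with DMSO against 9.64 and 9.19 with GSI in WT cells, and 11.22 and 11.003 with DMSO against 9.74 and 9.61 with GSI in IkL/L cells. No GSI array reached a DMSO array, and the difference was -1.38 ± 0.17 (adjusted p = 0.00103). Its partner at the ribosome, the DNAJ protein encoded by Dnajc2, measured 10.78 and 10.76 with DMSO against 10.02 and 10.03 with GSI in WT cells, and 10.89 and 10.97 with DMSO against 9.65 and 9.64 with GSI in IkL/L cells. Replicates lay within 0.08 of each other and far from the other treatment, with a difference of -1.02 ± 0.10 (adjusted p = 0.000412).

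The heat-inducible pair Hspa1a and Hspa1b (HSP70 in the narrow sense) did not pass. Hspa1b measured 5.77 and 5.37 with DMSO against 6.16 and 5.53 with GSI in WT cells, and 5.74 and 5.74 with DMSO against 6.04 and 8.22 with GSI in IkL/L cells. Hspa1a measured 3.80 and 3.30, 3.83 and 3.62, 3.50 and 3.72, and 3.70 and 5.58 in the same order. A single array, the second of IkL/L GSI, stood 2.18 above its replicate for Hspa1b and 1.89 for Hspa1a, and the other 7 arrays overlapped between treatments. The average differences were 0.84 ± 0.42 (adjusted p = 0.209) and 0.60 ± 0.35 (adjusted p = 0.29). Without IkL/L GSI replicate 1, which leaves the high array alone in its group, they were called at 1.38 and 1.07 (adjusted p = 0.00554 and 0.00442). The pair is nearly identical in sequence, so its probe sets cannot be assigned to one copy with certainty. Hspa2 (0.38) and Hspa1l (0.03), both known for their roles in the testis, did not pass either. Of the 6 HSP70 genes of the cytosol and nucleus 33.3% fell, against 12.5% of all genes, and 2 of the 6 lay above the median gene. Counting all 6 HSP70 genes of the cytosol and nucleus, 2 fell, and 1 did without any one of IkL/L DMSO 1, IkL/L DMSO 2, IkL/L GSI 2, WT DMSO 1 or WT DMSO 2, or with the GAPDH covariate.

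Exchange factors of HSP70 held the gene with the largest fall of all members. Hsph1 (HSP110, also HSP105) measured 11.80 and 11.49 with DMSO against 10.11 and 10.00 with GSI in WT cells, and 11.95 and 11.61 with DMSO against 9.77 and 9.26 with GSI in IkL/L cells. The treatments were more than 1 log2 unit apart at their closest arrays, and the gene was 3.80-fold lower (log2 difference -1.93 ± 0.15, adjusted p = 0.000234). Its second probe set gave -3.07. Hspa4, a second HSP110, measured 12.30 and 11.95, 11.30 and 10.86, 12.27 and 12.16, and 11.08 and 11.08 in the same order of groups, again without overlap (-1.09 ± 0.13, adjusted p = 0.000785). Hspa4l, the third, did not pass (0.24 ± 0.13, adjusted p = 0.24), with levels of 7.92 to 8.34 under DMSO and 8.34 to 8.60 under GSI. Its 4 other probe sets above the median gene gave larger differences, 0.46 to 0.70. In the brightest of these, all GSI arrays (8.29 to 8.74) lay above all DMSO arrays (7.64 to 8.17). The 3 other such probe sets of Hspa4 gave -1.37 to -0.09. Both calls in this family held without each array in turn and with the GAPDH covariate, where the differences were -1.68 for Hsph1 and -0.72 for Hspa4.

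Among the 6 BAG genes, all above the median gene, 3 fell (50%), against 21.7% of genes above the median gene. Bag2, an inhibitor of the ubiquitin ligase that works with HSP70, measured 7.89 and 7.43 with DMSO against 6.44 and 5.91 with GSI in WT cells, and 7.76 and 7.4996 with DMSO against 6.30 and 6.25 with GSI in IkL/L cells. All GSI arrays were at least 0.99 below all DMSO arrays, and the difference was -1.42 ± 0.17 (adjusted p = 0.000904). Bag1, which links HSP70 to the proteasome, measured 10.35 and 10.41, 9.99 and 9.68, 10.39 and 10.50, and 9.47 and 9.28, without overlap, and fell by 0.81 (adjusted p = 0.00229), and Bag4, at 8.32 and 8.86, 7.90 and 7.92, 8.25 and 8.74, and 7.89 and 7.96, fell by 0.63 (adjusted p = 0.0334), with both ranges again apart, a call lost without 6 of the 8 arrays in turn. Bag5 had a similar difference, -0.80, but its WT GSI replicates were 9.37 and 8.12 and it did not pass (adjusted p = 0.0708), and with the GAPDH covariate its sign turned (0.16). Bag3, an HSF1 target that steers clients to autophagy, measured 6.52 and 6.07, 6.75 and 6.24, 7.41 and 7.22, and 6.78 and 6.91 in the usual order. Its treatments overlapped in WT, while in IkL/L both GSI arrays lay below both DMSO arrays, and it did not pass (-0.13, adjusted p = 0.649). Bag6 was at -0.07. With the GAPDH covariate the same number, 3, fell. Hspbp1, an exchange factor of another fold, measured 9.27 and 8.62 with DMSO against 8.20 and 7.52 with GSI in WT cells, and 9.34 and 9.19 with DMSO against 7.63 and 7.78 with GSI in IkL/L cells. The lowest DMSO array stayed above the highest GSI array, and the difference was -1.32 ± 0.21 (adjusted p = 0.00271).

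The CCT chaperonin, which folds actin, tubulin and many other cytosolic proteins, fell in 7 of its 9 genes (77.8%), with a median of -0.62. Of the 9, 8 lay above the median gene, where 21.7% of all genes fell. Cct8 measured 12.67 and 12.43 with DMSO against 11.61 and 11.13 with GSI in WT cells, and 12.63 and 12.41 with DMSO against 11.34 and 10.94 with GSI in IkL/L cells. The treatments did not overlap, and the difference was -1.28 ± 0.14 (adjusted p = 0.000677). Cct6a measured 12.51 and 12.50, 11.54 and 11.33, 12.52 and 12.55, and 11.84 and 11.55, and Cct3 measured 12.88 and 12.43, 12.01 and 11.75, 12.95 and 12.66, and 11.82 and 11.88, each with all GSI arrays below all DMSO arrays. Cct6a (-0.95 ± 0.09), Cct3 (-0.87 ± 0.12), Tcp1 (-0.70 ± 0.11), Cct7 (-0.62 ± 0.17), Cct5 (-0.58 ± 0.11) and Cct2 (-0.31 ± 0.07) fell as well, with adjusted p from 0.000433 to 0.0297. Tcp1, the founding subunit, measured 13.13 and 13.03 with DMSO against 12.68 and 12.19 with GSI in WT cells, and 13.19 and 13.08 with DMSO against 12.32 and 12.45 with GSI in IkL/L cells, with every GSI array lower. The 8 subunits of the ring occur in equal number in the complex. Their measured differences, each from 1 probe set, were spread from -1.28 to -0.08. Other probe sets above the median gene also differed within a subunit, from -1.80 to -0.54 for Cct3 and from -0.57 to -0.25 for Cct2. The spread among subunits therefore cannot be told apart from that among probe sets.

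Cct4 was the subunit of the common ring that did not pass. It measured 12.92 and 12.90, 12.76 and 12.82, 12.96 and 12.88, and 12.80 and 12.95, and its treatments overlapped (-0.08 ± 0.06, adjusted p = 0.449). Its 4 other probe sets above the median gene gave differences of -0.10 to -0.75, so its brightest probe set had the smallest difference of the 5. Cct6b, the testis form of subunit 6, lay low on the scale (the 26.3 percentile of genes) and did not pass (0.06). Between 5 and 7 CCT genes fell when single arrays were left out. With the GAPDH covariate 3 did, Cct8, Cct6a and Cct3, at -0.89, -0.86 and -0.50.

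**Figure D3:**
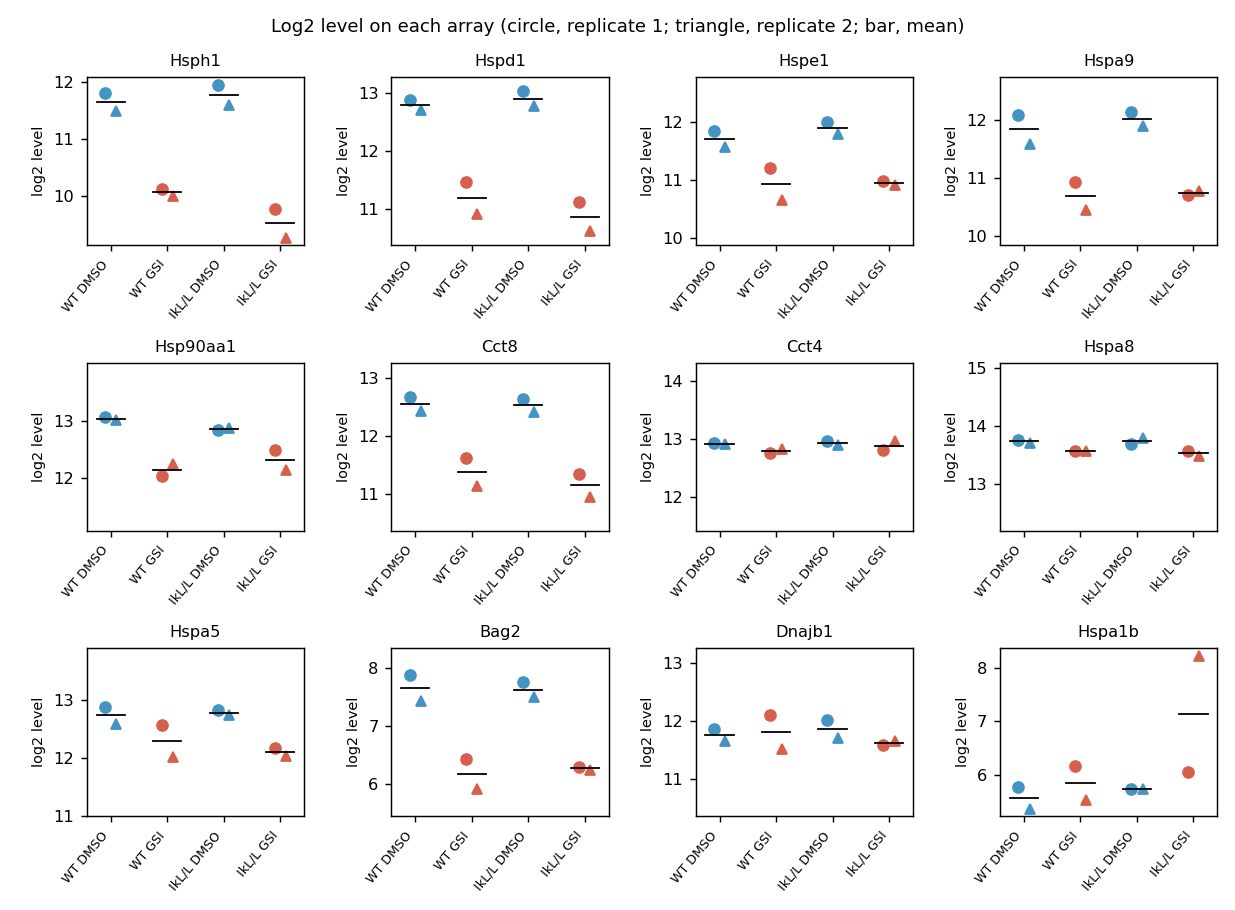
Log2 level (vertical axis) of 12 genes on each array, by group (horizontal axis); circles are replicate 1, triangles replicate 2 and bars means of 2 arrays, with blue for DMSO and red for GSI. In Hsph1, Hspd1, Hspe1, Hspa9, Hsp90aa1, Cct8, Hspa5 and Bag2 all red points lie below all blue points; Cct4 and Dnajb1 overlap, and Hspa1b has 1 red point far above the rest.

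In mitochondria the HSP60 and HSP10 pair fell together with the mitochondrial HSP70. Hspd1 measured 12.89 and 12.71 with DMSO against 11.47 and 10.91 with GSI in WT cells, and 13.04 and 12.78 with DMSO against 11.13 and 10.62 with GSI in IkL/L cells. No array of one treatment came within 1 log2 unit of the other, and the difference was -1.82 ± 0.16 (adjusted p = 0.000321). Hspe1, its lid and its neighbour on the chromosome, measured 11.84 and 11.57, 11.21 and 10.66, 11.99 and 11.79, and 10.98 and 10.92. It fell by 0.86 (SE 0.14, adjusted p = 0.00329), and its second probe set gave -0.98. Hspa9 (mortalin), which pulls proteins through the inner membrane, measured 12.09 and 11.58, 10.92 and 10.44, 12.13 and 11.89, and 10.69 and 10.76. It fell by 1.22 without overlap (adjusted p = 0.00111).

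Dnajc11 is linked to the inner membrane's folds. It measured 9.21 and 8.44, 8.47 and 7.55, 9.35 and 8.80, and 7.73 and 8.12, with treatments that overlapped in WT and not in IkL/L. It fell by 0.98 (adjusted p = 0.0312), with replicates 0.77 and 0.93 apart in WT DMSO and WT GSI. Dnaja3 and Dnajc15, co-chaperones of the mitochondrial HSP70 and of the import motor, did not pass at -0.55 (adjusted p = 0.0561) and -0.57 (adjusted p = 0.055). Dnajc28 rose: it measured 6.50 and 6.86 with DMSO against 6.88 and 7.03 with GSI in WT cells, and 5.93 and 6.12 with DMSO against 6.71 and 6.77 with GSI in IkL/L cells (0.49 ± 0.13, adjusted p = 0.0277). The treatments separated within each genotype but overlapped between them, and the call was lost without 6 of the 8 arrays in turn. In all, 4 of 7 mitochondrial genes fell (57.1%) and 1 rose (14.3%), against 21.7% and 17.8% of genes above the median gene, where all 7 lay. With the GAPDH covariate 2 fell, Hspd1 and Hspa9, at -1.39 and -0.73, while Hspe1 lost its call.

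Of 8 ER genes, all above the median gene, 3 fell (37.5%) and none rose, against 21.7% and 17.8% of genes above the median gene. Hspa5 (BiP), the HSP70 of the ER, measured 12.88 and 12.59 with DMSO against 12.56 and 12.01 with GSI in WT cells, and 12.83 and 12.74 with DMSO against 12.18 and 12.03 with GSI in IkL/L cells. The lowest DMSO array was just above the highest GSI array (-0.56 ± 0.13, adjusted p = 0.0153). Hsp90b1 (GRP94), the HSP90 of the ER, measured 11.54 and 11.43, 10.88 and 10.47, 11.46 and 11.55, and 11.05 and 10.71, without overlap (-0.72 ± 0.13, adjusted p = 0.005). Dnajb11, which delivers clients to BiP, measured 9.77 and 9.37, 9.32 and 8.45, 9.85 and 9.64, and 8.88 and 8.74. Its lowest DMSO array and highest GSI array lay close together, and it fell by 0.81 (adjusted p = 0.0237). Dnajb9, a BiP co-chaperone that is itself induced by ER stress, had a difference of 0.56 that did not pass (adjusted p = 0.0529). Dnajc3, Dnajc10, Dnajc1 and Hspa13, at -0.02 to 0.36, did not pass either, and the 0.36 of Dnajc1 turned to -0.39 with the GAPDH covariate. Their other probe sets above the median gene gave -0.52 to -0.17 for Dnajc3, -0.63 and -0.20 for Dnajc10 and -0.18 for Hspa13. Those of Dnajc1 gave 0.14 to 0.58. The 3 ER genes that fell became 1 without IkL/L DMSO 1, IkL/L GSI 2 or WT DMSO 1. With the GAPDH covariate none of the 8 fell and 1, Dnajb9, rose (1.03, adjusted p = 0.00754).

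DNAJ proteins hand clients to HSP70 and start its ATPase. Of the 14 DNAJA and DNAJB genes of the cytosol, nucleus and cytosolic face of the ER, 3 fell (21.4%) and 1 rose (7.14%). Among all genes 12.5% fell and 10.8% rose, and among genes above the median gene 21.7% and 17.8% did. Of the 14, 9 lay above the median gene, and with so few genes no difference from these shares is claimed. Dnaja2 and Dnaja1, the main DNAJA co-chaperones of cytosolic HSP70, fell by 0.81 (adjusted p = 0.00503) and 0.29 (adjusted p = 0.0218), and Dnajb6, which suppresses protein aggregation, fell by 0.44 (adjusted p = 0.0437). Dnaja2 measured 12.12 and 12.10, 11.60 and 10.999, 12.01 and 12.05, and 11.40 and 11.02, and Dnajb6 measured 11.55 and 11.31, 11.30 and 10.79, 11.33 and 11.34, and 10.93 and 10.76. Every Dnaja2 GSI array, and every Dnajb6 GSI array, was below the DMSO arrays. Dnajb2 rose by 0.59 (adjusted p = 0.0242), with levels of 7.24 and 6.95, 7.64 and 7.28, 7.02 and 6.73, and 7.61 and 7.79 and no overlap. Dnajb1 (HSP40), a classical HSF1 target, measured 11.86 and 11.65, 12.10 and 11.52, 12.02 and 11.72, and 11.59 and 11.66, with both treatments overlapping (-0.09 ± 0.14, adjusted p = 0.723). Its sign turned with the GAPDH covariate, to a called 0.39 (adjusted p = 0.0463). Dnajb14, at 0.80, did not pass (adjusted p = 0.0661), and with that covariate its sign turned too (-0.14). For Dnaja2 1 of 3, and for Dnajb6 2 of 3, other probe sets above the median gene had the opposite sign, up to 0.38 and 0.37. The 3 that fell became 1 when any one of IkL/L DMSO 1, IkL/L GSI 1, IkL/L GSI 2, WT DMSO 1 or WT DMSO 2 was left out, and 0 with the GAPDH covariate, where 3 rose.

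The other 21 DNAJC genes have varied tasks, and 16 of them lay above the median gene. There 21.7% of genes fell and 17.8% rose, against 12.5% and 10.8% of all genes. Of the 21, 5 fell (23.8%) and 2 rose (9.52%). Besides Dnajc2, these were Dnajc9, a histone chaperone (11.50 and 11.62, 10.89 and 10.47, 11.52 and 11.45, and 10.67 and 10.53, without overlap, -0.88 ± 0.12, adjusted p = 0.00134), and Dnajc21, a factor in maturation of the large ribosomal subunit (9.10 and 8.94, 8.38 and 8.17, 9.26 and 8.92, and 8.40 and 8.14, also without overlap, -0.78 ± 0.14, adjusted p = 0.00591). Dnajc24, a factor in making diphthamide on the elongation factor eEF2, and Dnajc27 fell by 0.65 and 0.60 (adjusted p = 0.0224 and 0.0159). Dnajc6 (auxilin), which strips clathrin from vesicles, rose: it measured 9.31 and 9.68 with DMSO against 9.53 and 10.34 with GSI in WT cells, and 8.35 and 8.61 with DMSO against 9.72 and 10.14 with GSI in IkL/L cells (0.95 ± 0.21, adjusted p = 0.0128). Its separation was clear in IkL/L, while the WT arrays overlapped, and the call was lost without IkL/L DMSO 1 or IkL/L GSI 2 (0.88 and 0.84, adjusted p = 0.0587 and 0.0614). Dnajc4 measured 7.26 and 7.33, 7.71 and 7.98, 7.16 and 7.23, and 7.498 and 7.56 and rose by a log2 value of 0.44 (adjusted p = 0.0353) without overlap, a call lost without 7 of the 8 arrays in turn and with the GAPDH covariate. Without IkL/L DMSO 1, IkL/L GSI 1 or WT DMSO 1 the 5 that fell became 3, and with the GAPDH covariate 2 fell, Dnajc2 (-1.04) and Dnajc9 (-0.67), and 3 others rose.

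Small heat shock proteins, which hold unfolding proteins in solution and are among the genes most strongly raised by heat in many cells, did not pass in any of 7 cases, of which 1 lay above the median gene. Hspb1 (HSP25 in mouse) measured 6.08 and 5.73 with DMSO against 6.41 and 6.11 with GSI in WT cells, and 6.11 and 5.94 with DMSO against 6.04 and 6.23 with GSI in IkL/L cells (0.23 ± 0.14, adjusted p = 0.285). Its arrays overlapped between treatments. Hspb6 and Hspb8 were at 0.47 (adjusted p = 0.0807) and 0.27 (adjusted p = 0.374), and Hspb2, Hspb3, Hspb7 and Hspb9 at -0.14 to -0.02. With the GAPDH covariate Hspb6 and Hspb8 were called higher, at 0.90 and 0.89. Of the 6 other members only Hspbp1 passed, and the rest, among them Hspb11, a protein of cilia, lay between -0.32 and 0.14.

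Of the 35 called members, 21 had other probe sets above the median gene, 37 in all. In 19 of these genes every such probe set had the sign of the one used, and 34 of the 37 did, with Dnaja2 and Dnajb6 as the exceptions.

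**Figure D4:**
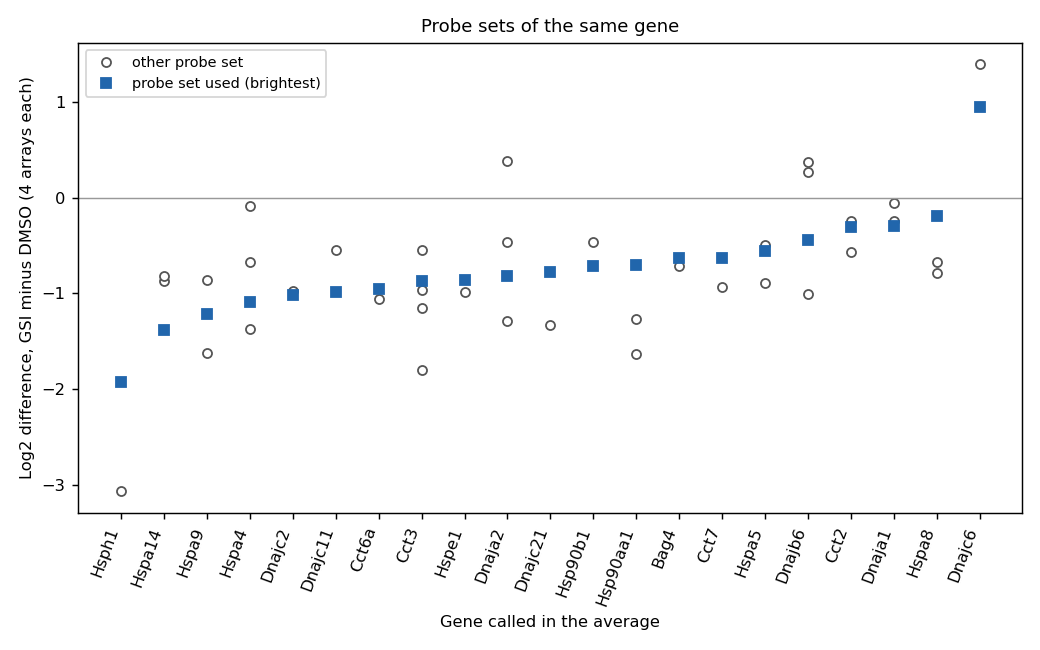
Log2 difference between GSI and DMSO (vertical axis, 4 arrays each) of each called gene with other probe sets above the median gene (horizontal axis); squares are the probe set used and open circles the others. All points of a gene lie on the same side of 0 except those of Dnaja2 and Dnajb6.

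The response in each genotype was tested next. In WT, 14 members fell (15.9%), none rose and 74 did not pass, against 4.16% and 2.31% of all genes. In IkL/L, 24 fell (27.3%) and 3 rose, against 9.09% and 7.7% of all genes. All 14 genes that fell in WT also fell in IkL/L, as did 93.5% of the 756 genes lower in WT overall. Hsph1 fell by 1.59 in WT and by 2.26 in IkL/L (adjusted p = 0.0105 and 0.000876), Hspd1 by 1.61 and 2.03 (0.0117 and 0.00135), Hspa14 by 1.32 and 1.43 (0.0216 and 0.00597), and Bag2 by 1.48 and 1.35 (0.0158 and 0.00743). Hsp90aa1 was at -0.88 in WT and -0.54 in IkL/L, both called. That order came from its brightest probe set, and its 2 other probe sets above the median gene fell more in IkL/L than in WT. Hspe1 passed in IkL/L (-0.94, adjusted p = 0.0141) and had a similar difference in WT that did not pass (-0.77, adjusted p = 0.0581). Dnajc15, at 9.32 and 9.05, 9.30 and 8.63, 9.24 and 8.91, and 8.19 and 8.13, passed in IkL/L (-0.91, adjusted p = 0.044), with -0.22 in WT (adjusted p = 0.71). The 3 genes that rose in IkL/L were Dnajc6 (1.45), Dnajb2 (0.82) and Dnajc28 (0.72), which had 0.44, 0.36 and 0.27 in WT.

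These counts rest on few arrays. The 14 calls in WT became 0 without WT DMSO 1, 5 without WT DMSO 2, 7 without WT GSI 2, 7 without either IkL/L DMSO array and 22 without WT GSI 1, and 0 when the fit held the 4 WT arrays alone (22 members at an unadjusted p under 0.05). The 27 calls in IkL/L became 7 and 10 without its first and second DMSO array, and 16 and 8 without its first and second GSI array. With the GAPDH covariate 12 fell and 6 rose in WT, and 13 fell and 5 rose in IkL/L. Calls among all genes in the same runs are not given here, so these losses cannot be read as particular to the members.

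Whether the response differed between genotypes was tested directly, as the IkL/L difference minus the WT difference. None of the 88 members passed with limma (3 had an unadjusted p under 0.05), and 0.044% of all genes did (8, with 1089 at an unadjusted p under 0.05). The members with the smallest p were Dnajc5g (-0.58, adjusted p = 0.59), Dnajc2 (-0.54, adjusted p = 0.767) and Dnajc6 (1.01, adjusted p = 0.812). A log2 difference more negative in IkL/L was found for 56 of 88 members (63.6%), beside 59.4% of all genes.

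**Figure D5:**
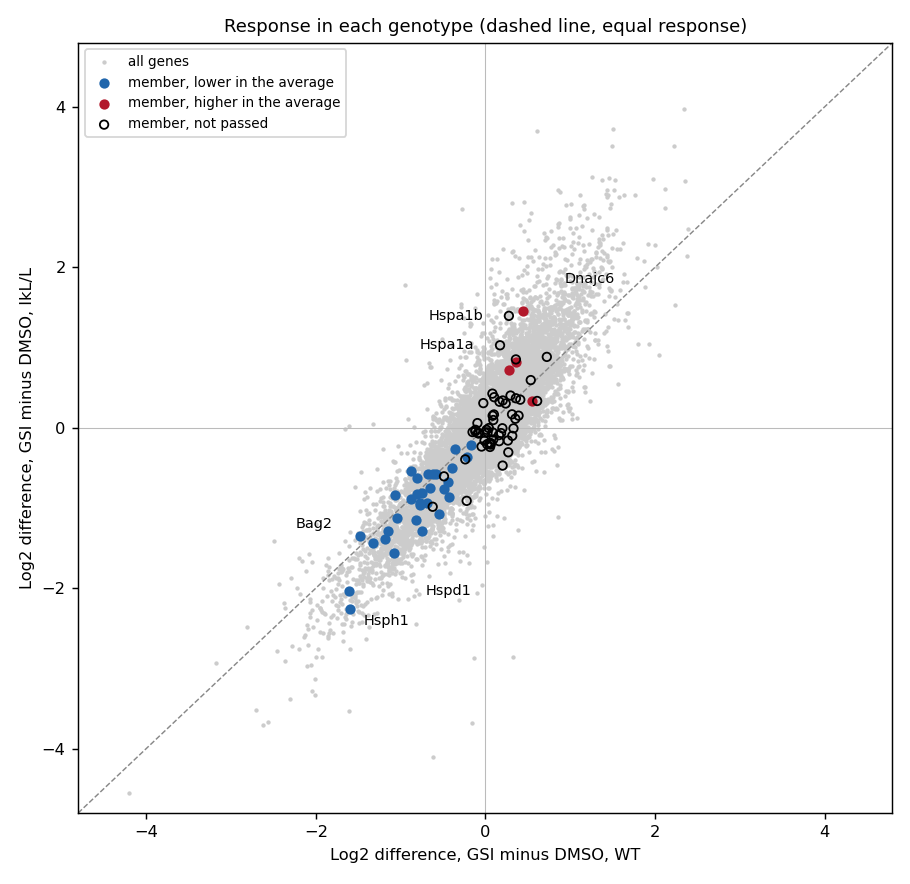
Log2 difference between GSI and DMSO in WT (horizontal axis) against that in IkL/L (vertical axis) for all genes (grey) and the 88 members (blue, lower in the average; red, higher; open, not passed), with a dashed line of equal response. The members that fell reach down to Hsph1 at -1.59 and -2.26, and 24 of the 31 (77.4%) lie below the line, as do 78.2% of all genes that fell; Hspa1a, Hspa1b and Dnajc6 lie above it.

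Between genotypes under the same treatment, no member passed. Under DMSO 4 members had an unadjusted p under 0.05, and 1.74% of all genes passed (316, with 1854 at an unadjusted p under 0.05). Bag3 was nearest, with both IkL/L arrays (7.41 and 7.22) above both WT arrays (6.52 and 6.07) and a log2 difference of 1.02 (adjusted p = 0.0882). It passed under 8 of the alternatives, among them without WT GSI 1 and without WT GSI 2 (adjusted p = 0.0459 and 0.0461). Dnajc28 and Dnajc6 were lower in both IkL/L DMSO arrays than in both WT DMSO arrays without passing (-0.65, adjusted p = 0.185, and -1.01, adjusted p = 0.2). Under GSI 8 members had an unadjusted p under 0.05, and 1.46% of all genes passed (266, with 1946 at an unadjusted p under 0.05). The smallest p were those of Dnajc5g (-0.44, adjusted p = 0.131), Dnajc15 (-0.80, adjusted p = 0.26) and Dnajc2 (-0.38, adjusted p = 0.344).

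Genes of the same pathways outside the symbol rule were counted in the average response. All genes of the first 4 lists lay above the median gene, where 21.7% of genes fell and 17.8% rose. Of 17 measured HSP90 and HSP70 co-chaperones 7 fell (41.2%) and 1 rose (5.88%), with a median of -0.29. Fkbp4, an HSP90-bound prolyl isomerase, fell by 1.61 (adjusted p = 0.000213), Stip1 (HOP), which joins HSP70 to HSP90, by 1.30 (adjusted p = 0.00362), and Ahsa1, the activator of the HSP90 ATPase, by 1.06 (adjusted p = 0.00271). Ruvbl1 and Ruvbl2, paired ATPases that assemble complexes with HSP90, fell by 1.04 and 1.21, and Unc45a rose by 0.74 on the log2 scale (adjusted p = 0.00527). Cdc37, which brings kinases to HSP90, did not pass (-0.36).

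Of 14 prefoldin genes and CCT cofactors 4 fell (28.6%), near the background share, with a median of -0.15. These were Pfdn4 (-1.23), Pfdn6 (-0.61), Pfdn1 (-0.59) and Vbp1 (-0.42), all subunits of prefoldin, which brings unfolded actin and tubulin to CCT. The prefoldin subunits Pfdn2 (-0.81, adjusted p = 0.086) and Pfdn5 (0.45, adjusted p = 0.15) did not pass, and none of the tubulin cofactors Tbca to Tbce did. Of 11 genes of mitochondrial folding and proteolysis 6 fell (54.5%), with a median of -0.58: the proteases Clpp, Lonp1 and Yme1l1 (-1.19, -1.0009 and -0.84), Clpb (-1.15), the mitochondrial HSP90 Trap1 (-0.85) and Grpel1, the exchange factor of Hspa9 (-0.58).

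In the ER list of 19 genes 5 fell (26.3%) and 3 rose (15.8%), both near the background shares. Sdf2l1, a partner of Dnajb11, fell by 1.83 (adjusted p = 0.000544), and Pdia4, Creld2, Pdia3 and Canx fell by 1.09, 1.04, 0.86 and 0.61. The 3 that rose were regulators of the unfolded protein response, Ern1 (1.43), Ddit3 (1.19) and Xbp1 (1.04). Another regulator on the list, Atf6, did not pass (0.07, adjusted p = 0.784), nor did Herpud1, Edem1, Syvn1, Sel1l and Hyou1, at 0.015 to 0.27. Of 6 other heat shock factors and HSF1 targets measured, only Hspbp1, itself a member, passed, and Hsf2, Hsf4, Serpinh1, Cryab and Chordc1 lay between -0.13 and 0.64. Immediate early genes, which rise when cells are handled, averaged 6.85 to 8.00 on DMSO arrays and 6.62 to 8.91 on GSI arrays, with the highest means on WT DMSO 1 and WT GSI 1, and none of the 12 passed between treatments.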

How the data were processed

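RNA of sorted cells was labelled with 2 amplification cycles, per the labels. Log2 values per probe set come from RMA as run by the authors, per the submitters' processing notes; its version is not given in the sources used here. RMA includes a quantile step that sets all arrays to one distribution, so a shift of total RNA would not be seen. The labels give several amounts of starting RNA without mapping them to samples.

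Left out of the 45101 probe sets were 64 controls, 932 that name more than 1 gene and 9160 without a listed gene, and no filter on dim genes was set. For the members 3 probe sets naming several genes were left out. Groups came from sample titles. The test was that of limma 3.58.1, run in R 4.3.3 with a variance trend, on all 8 arrays with 4 groups as terms, 4 residual and 4.11 prior degrees of freedom; tests were two-sided, 6 contrasts were made, and calls need an adjusted p (Benjamini-Hochberg, 18193 genes) under 0.05. The number of arrays limits precision. SE is the moderated standard error.

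Values on every array are given for members fixed by name and for called members with the largest differences, in each contrast and each role, and the 3 smallest p are named where a contrast has fewer calls. Members, roles, lists and alternatives were chosen with earlier results of these data known, and the GAPDH and stromal covariates and the fit without both WT arrays numbered 1 came from an earlier analysis. The lists were co-chaperones, prefoldin and CCT cofactors, mitochondrial folding and proteolysis, ER folding, other HSF1 targets, immediate early genes and cell type markers. Alternatives tried were a replicate block, averaged probe sets, only genes above the median level, centring, repeated quantile normalization, no variance trend, only the arrays compared, each array left out, both WT arrays numbered 1 left out, and stromal level or GAPDH difference as a covariate. Other members whose values decide a statement were named after their values were seen. The fit was tested on simulated data. Platform symbols of all 88 members equal RefSeq symbols. Tables and plots used pandas 2.3.3, numpy 2.4.6 and matplotlib 3.10.9 in Python 3.11.15.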

Additional observations from a re-analysis of the deposited data

Results flagged for a closer look

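In 2 members both GSI arrays lay above both DMSO arrays in WT and below them in IkL/L. Dnajb12, an ER membrane co-chaperone, measured 6.97 and 7.004, then 7.12 and 7.18, in WT DMSO and GSI, and 7.09 and 7.10, then 6.87 and 6.99, in IkL/L DMSO and GSI; the responses differed by -0.33 (IkL/L minus WT, unadjusted p = 0.183). Dnajc5g, at the low end of the scale, measured 3.31 and 3.58, then 3.69 and 3.73, in WT, and 3.62 and 3.53, then 3.31 and 3.23, in IkL/L; the responses differed by -0.58 (unadjusted p = 0.00555, adjusted p = 0.59 with limma). Neither difference passed, and 675 of all genes (3.71%) showed such opposite, non-overlapping arrays.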

How the results depend on the processing

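Counts of called members kept their direction of balance (more lower than higher) in all runs of the average response, from 21 to 37 in total when single arrays were left out and from 24 to 47 under the other alternatives. In WT the count went from 0 to 22 when single arrays were left out, and was 0 with only the arrays compared, 31 with the stromal level as a covariate and 10 to 21 under the others. In IkL/L it went from 7 to 33 when single arrays were left out and from 18 to 38 otherwise. No alternative called a member in the interaction. Under DMSO the genotype contrast, at 0, reached 4 with the GAPDH difference, 3 with the stromal level, 2 with the replicate block and 1 with centring, with quantile normalization once more and without both WT arrays numbered 1, and 0 to 1 when single arrays were left out. Under GSI it reached 1 with the stromal level and 0 to 2 when single arrays were left out, the 2 without IkL/L GSI 1. With the GAPDH difference the split of calls narrowed: in the average response 31 lower and 4 higher members became 15 and 9. Calls among all genes under these alternatives are not given here, and the cause of these changes was not tested.

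Deviations of same-numbered arrays from their group means correlated among WT DMSO, WT GSI and IkL/L DMSO (r = 0.71, 0.58 and 0.56), and not between IkL/L GSI and these groups (r = -0.11, 0.02 and -0.01). Since not every pair correlated, the numbers were not taken to pair the samples. With the replicate block 42 members were called in the average, 19 in WT, 34 in IkL/L and 0 in the interaction and in the genotype contrast under GSI.

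With the GAPDH difference the sign in the average turned for 17 of the 88 members, all uncalled without it, most of all Bag5 (from -0.80 to 0.16), Dnajb14 (0.80 to -0.14) and Dnajc1 (0.36 to -0.39). Of others named in the text, Bag3 became 0.33 in the average and 0.0364 in IkL/L, Dnajb1 0.39 and 0.29, Cct6b -0.0536 in the average, and Dnajc15 0.27, Cct7 0.0362 and Dnajc6 -0.11 in WT. With the stromal level Dnajb1 became -0.0258 in WT, and with quantile normalization once more Cct4 became 0.0065 in IkL/L. Leaving out single arrays gave ranges across 0 in WT for Bag3 (-0.0506 to 0.4565), Dnajb1 (-0.2361 to 0.3449), Dnajc15 (-0.5535 to 0.1119), Hspa1a (-0.0759 to 0.4208) and Hspa1b (-0.0415 to 0.5953), in IkL/L for Cct4 (-0.1225 to 0.0320), and in the average for Cct6b (-0.0045 to 0.1223), Dnajb1 (-0.2378 to 0.0527) and Dnajc5g (-0.0846 to 0.0483). Without both WT arrays numbered 1, Dnajb1 became -0.13 in WT.

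The calls of 14 members in the average held in all 17 alternatives: Bag1, Bag2, Cct3, Cct6a, Cct8, Dnajc2, Dnajc9, Hsp90aa1, Hspa14, Hspa4, Hspa9, Hspbp1, Hspd1 and Hsph1.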

Other observations

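Markers of other lymphoid and erythroid cells were read on the same arrays. Of 8 B cell markers measured 2 (25%) were higher under GSI on average, Vpreb1 (1.80) and Cd79b (1.28), against 10.8% of all genes. The other B cell markers did not pass, among them Cd79a (0.14), Pax5 (0.0015), Ebf1 (0.09) and Ms4a1 (0.26). Of 10 natural killer and innate lymphoid markers 2 (20%) were higher, Rora (1.43) and Nkg7 (1.11), while none of 5 erythroid markers passed. Among 4 markers not expected in the sort gate, Cd4 was higher under GSI (0.77). Their part in the values of the chaperone genes was not tested.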
